A study of Canis lupus familiaris with 10 samples.

Results

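Regions of the dog genome where chromatin was called accessible in every library of the canine B-cell lymphoma cell line 17-71, and in no library of a second such line, CLBL-1, are described here. They were selected by the presence of peaks alone. Touching or overlapping peaks of all 10 libraries were merged into 59420 regions, and a region was kept when each of the 5 libraries of 17-71 had a peak in it (an overlap of at least 1 bp) and none of the 5 libraries of CLBL-1 did. This left 6499 regions, 10.9% of all merged regions and 36.9% of the 17601 regions called in every library of 17-71. With peaks of a −log10 p of at least 10 the rule left 2134 regions, and with control libraries only 12715. The 6499 are called 17-71-specific regions below, a name for the pattern of calls, since a site without a peak can still be accessible.

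ATAC-seq uses a transposase that cuts and tags DNA where nucleosomes leave it exposed, and stretches dense in tagged fragments are called as peaks. Such stretches include promoters and distal enhancers, and the distal ones differ most between cell types and between tumours of a single cell type. PRMT5 places symmetric dimethyl marks on arginines of histones and other proteins, among them histone marks linked to repression, and the study asked how its inhibition changes accessibility over the whole genome.

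Both lines were grown with or without 100 nM of the PRMT5 inhibitor C220, which the sample labels name PR220. Cells of 17-71 were collected on day 4 and those of CLBL-1 on day 2, so line and day of collection cannot be told apart. For 17-71 there were 3 control libraries (replicates 1, 2 and 3) and 2 libraries treated with C220 (replicates 4 and 6), and for CLBL-1 there were 2 control and 3 C220 libraries. The study describes its ATAC-seq experiments as biological triplicates, while the labels do not tie libraries to separate cultures, so p-values measure the spread between these libraries. Defining B-cell markers could not be checked here without an annotation of the genome build.

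The libraries of 17-71 stood apart from each other in the length of their peak lists. Controls 1, 2 and 3 held 44378, 33358 and 30943 peaks, and C220 replicates 4 and 6 held 22076 and 27646. The libraries of CLBL-1 held 23082 to 27247 peaks. Every control library of 17-71 thus had a longer list than both C220 libraries. The depth of the libraries is unknown, since the lists carry no read counts. Leaving out the library with the longest list, control 1, gave 6534 regions that met the same rule, and leaving out the one with the shortest, C220 replicate 4, gave 9140.

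The 10 17-71-specific regions with the strongest support, ranked by the smallest −log10 p over their 5 peaks, lie on 8 chromosomes. The first is at chr14:43435384-43437506 in CanFam3.1. Its −log10 p was 153.8, 104.4 and 89.4 in controls 1, 2 and 3 and 69.3 and 68.3 in C220 replicates 4 and 6, and its fold enrichment over local background was 5.15, 4.62, 4.23, 5.44 and 4.42 in the same order. Its percentile among the library's peaks, where 100 is the strongest −log10 p, lay between 99.4 and 99.7 in the 5 libraries, and the nearest CLBL-1 peak was 9154 bp away.

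The second, at chr22:1298110-1299255, had a −log10 p of 123.0, 101.8 and 90.6 in the controls and 66.4 and 79.9 in the C220 libraries. Its nearest CLBL-1 peak was 93672 bp away. The third, at chr27:38784962-38787005, held the largest −log10 p of all 17-71-specific regions, 248.6 in control 1, beside 164.0 and 154.0 in controls 2 and 3 and 62.0 and 96.6 in C220 replicates 4 and 6. A CLBL-1 peak lay only 1683 bp from it. The control values of −log10 p were above both C220 values at these 3 regions, whereas their fold enrichments overlapped between control and C220, with 4.16, 3.77 and 3.86 in the controls of the third and 3.84 and 3.70 in its C220 libraries.

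The fourth region by rank, at chr31:2932156-2932847, was the shortest of the 10 (692 bp) and had their largest fold enrichments, at 9.99, 7.89 and 7.75 in the controls and 9.32 and 7.69 in the C220 libraries. The other 6 lie at chr17:62861891-62863233, chr34:250859-252844, chr13:34725312-34726904, chr13:33879126-33880224, chr34:11183560-11184805 and chr5:78331431-78333026. Their weakest −log10 p fell between 52.5 and 58.0. The region at chr34:11183560-11184805 had the widest spread of these 6, from 54.3 in C220 replicate 4 to 205.6 in control 1. No gene was paired with any of the 10 in the sources used here.

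**Figure D1:**
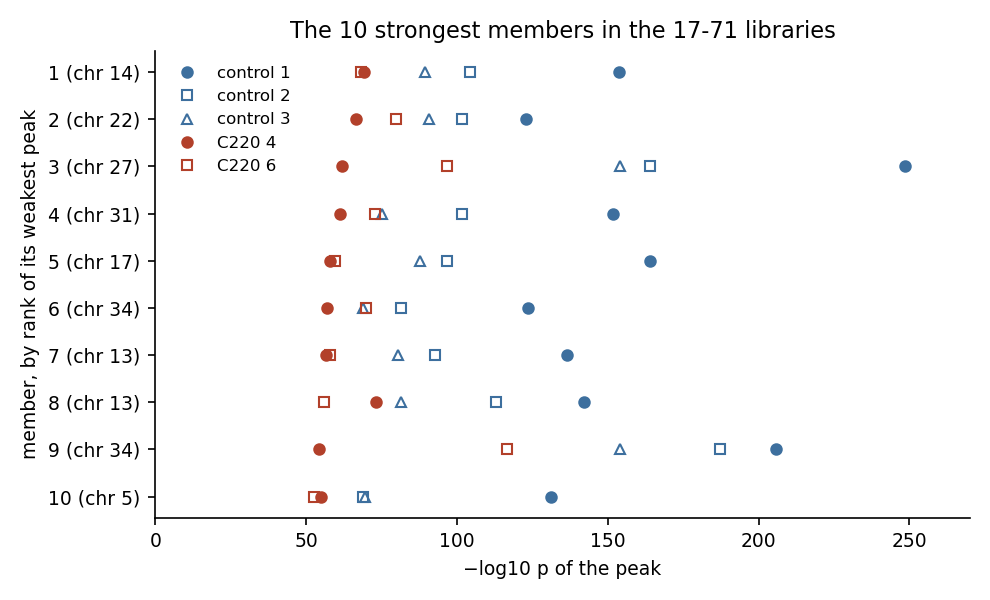
The −log10 p of the peak in each 17-71 library (horizontal axis) at the 10 strongest 17-71-specific regions (vertical axis, ordered by the weakest of the 5 peaks), with 1 point per library. Control 1 holds the largest value at all 10 regions, and the largest of all is 248.6 at the region on chromosome 27.

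Over all 6499 regions, support was moderate. The median fold enrichment was 4.86, 3.87 and 3.83 in controls 1, 2 and 3 and 3.99 and 3.81 in C220 replicates 4 and 6. The median −log10 p was 19.2, 13.2 and 12.0 in the controls and 7.94 and 9.95 in the C220 libraries. The weakest of the 5 peaks had a −log10 p under 6 at 1737 of the regions (26.7%), next to the smallest value in the lists, 5.00. Among the regions just inside the rule is chr13:44827328-44828769, whose weakest peak reached 5.00 in C220 replicate 6 and whose others reached 9.06, 10.8, 6.01 and 5.96.

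Ranked within their own library by percentile, from 0 for the weakest to 100 for the strongest −log10 p, peaks of the 17-71-specific regions had a median percentile of 73.7, 65.5 and 61.6 in controls 1, 2 and 3, and of 48.8 and 60.2 in C220 replicates 4 and 6. Peaks of the 9179 regions called in all 10 libraries ranked higher in each library, at 84.7, 78.4, 77.1, 69.3 and 74.5. The same held in CLBL-1. There, regions called only in CLBL-1 had median percentiles of 48.4 to 54.1, and regions called in all 10 libraries had 74.5 to 78.7. Only 186 of the 17-71-specific regions (2.86%) stayed at or above the 90th percentile in every library of 17-71, against 14.2% of the regions called in all 10. The strongest peaks of 17-71 were mostly shared with CLBL-1, with a −log10 p of up to 13326 in control 2.

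**Figure D2:**
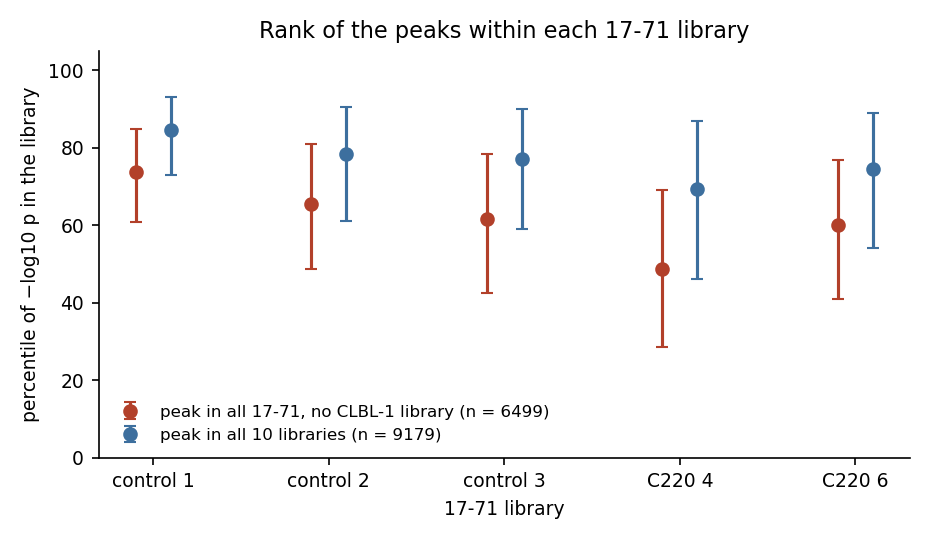
Percentile of −log10 p within the library (vertical axis) for each 17-71 library (horizontal axis). Points are medians over regions and bars span the quartiles over regions, not an error over replicates. The 17-71-specific regions sit below the regions called in all 10 libraries in every library, with C220 replicate 4 lowest at 48.8.

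When the 17601 regions called in every 17-71 library were ordered by their mean percentile and cut into 10 parts of nearly equal size, the 17-71-specific share fell at every step. It was 54.3% in the weakest part (957 of 1761 regions), 40.3% in the fifth and 14.0% in the strongest (246 of 1760). Over the same parts, the share called in all 10 libraries rose from 29.4% to 82.5%. Strength in 17-71 thus moved with whether CLBL-1 had a call. These shares describe the regions and carry no test, since the calls in CLBL-1 are what selected them.

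**Figure D3:**
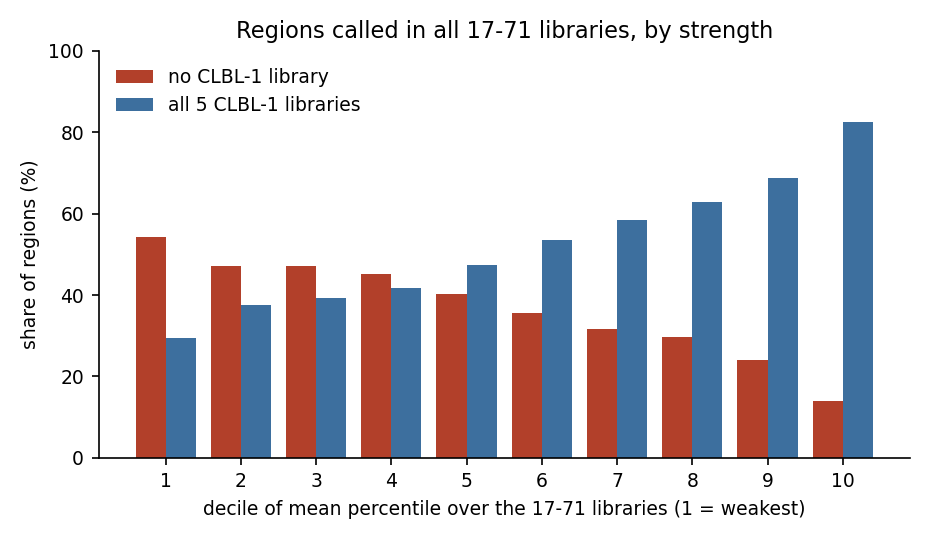
Share of the regions called in all 5 libraries of 17-71 (vertical axis, percent) that have a peak in no CLBL-1 library or in all 5 of them, for each of 10 parts by strength (horizontal axis, 1 is the weakest). The share without a CLBL-1 call falls from 54.3% to 14.0%.

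The order of the 17-71-specific regions by strength was partly shared between libraries. Spearman's rho of their percentiles, over 6499 regions that are not independent, ran from 0.57 (control 3 and C220 replicate 4) to 0.87 (controls 2 and 3). For regions called in all 10 libraries it ran from 0.74 to 0.93 over the same pairs. Of the 5 percentiles of a region, that in C220 replicate 4 was the lowest at 3468 regions (53.4%), and that in control 1 was the highest at 3796.

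The 17-71-specific regions had a median merged width of 1237 bp, and 163 of them (2.51%) were 3 kb or wider. Regions of the reverse pattern, called in CLBL-1 only, were of like width, with a median of 1206 bp and 2.09% at 3 kb or more. Regions called in all 10 libraries had a median of 1669 bp and 11.5% at 3 kb or more, but they join the peaks of 10 libraries in place of 5, which by construction can only widen them. Within single libraries, their summed peak width had a median of 1249, 1182 and 1198 bp in controls and 872 and 1079 with C220. The 17-71-specific regions had 1022, 1031 and 1030 bp in controls and 704 and 920 with C220, lower in each library. Each library had a single peak in the region at 6381 of the 6499. Bases covered by a peak in all 5 libraries spanned 635 bp at the median. At 5 regions there was no such base, so that the peaks of different libraries were joined only through those of others.

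The region widest in common, at chr23:8950996-8955252, had 4124 bp covered in all 5 libraries. Its fold enrichment was low and even, with 2.63, 2.46 and 2.43 in the controls and 2.54 and 2.57 in the C220 libraries. The next in common width were chr4:28809765-28813384 (3542 bp), chr17:30788310-30792465 (3515 bp), chr22:3332272-3336214 (3470 bp) and chr3:88897485-88901233 (3435 bp). The weakest −log10 p of these 5 was between 5.98 and 13.2, and none was among the 10 strongest. They differed in rank. The percentile at chr3:88897485-88901233 was 85.0, 93.9 and 90.2 in the controls and 77.3 and 89.7 in the C220 libraries, above the medians of the whole set, whereas chr22:3332272-3336214 had 60.2, 44.3 and 37.3 and 31.4 and 24.2, below them.

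Regions just outside the rule show which library decided it. A further 3570 regions without any CLBL-1 peak had a peak in 4 of the 5 libraries of 17-71, and the missing library was C220 replicate 4 at 2641 of them (74.0%), C220 replicate 6 at 451 and a control library at the rest. In the 4 libraries that had a peak, the regions missing in C220 replicate 4 had a median percentile of 38.1, below the 60.1 of the 17-71-specific regions. On the CLBL-1 side, 532 regions with a peak in all of 17-71 had a peak in just 1 CLBL-1 library. These CLBL-1 peaks were near the bottom of their lists, with a median percentile between 7.30 and 12.4 depending on the library.

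The reverse pattern, a peak in every library of CLBL-1 and in none of 17-71, was found at 4019 regions, 21.9% of the 18339 called in every CLBL-1 library. The lists of 17-71 differ in length more than those of CLBL-1, and the part of list length in the difference between 6499 and 4019 was not tested.

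The 17-71-specific regions were found on all 39 chromosomes in the lists, the 38 autosomes and X. Chromosome 14 had the largest share of them, 247 of the 448 regions called in every 17-71 library (55.1%), followed by chromosomes 34 (51.9%), 38 (47.9%), 37 (46.3%) and 13 (46.3%). The smallest shares were on chromosomes 9 (26.8%), 20 (27.3%) and 11 (29.0%). On chromosome 14, the reverse pattern took 15.2% of the regions called in every CLBL-1 library, below the 21.9% of all chromosomes, so this chromosome was high on the 17-71 side and low on the CLBL-1 side.

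Chromosome 14 also took a larger share of the whole peak list in 17-71. It held 2.52%, 2.72% and 2.59% of the peaks of controls 1, 2 and 3 and 2.55% and 2.62% of those of the C220 libraries, against 1.29% to 1.39% in the 5 CLBL-1 libraries. Among the 20000 strongest peaks of each library the shares were 2.42% to 2.58% and 1.24% to 1.39%, with every 17-71 library above every CLBL-1 library in both. The 17-71-specific regions of chromosome 14 had a median percentile of 71.5, 66.5 and 60.4 in the controls and 49.3 and 60.3 in the C220 libraries, near the values of the whole set. Along the chromosome, their share in steps of 10 Mb lay between 45.8% and 61.0% up to 60 Mb, and the last step held 6 such regions among 6.

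**Figure D4:**
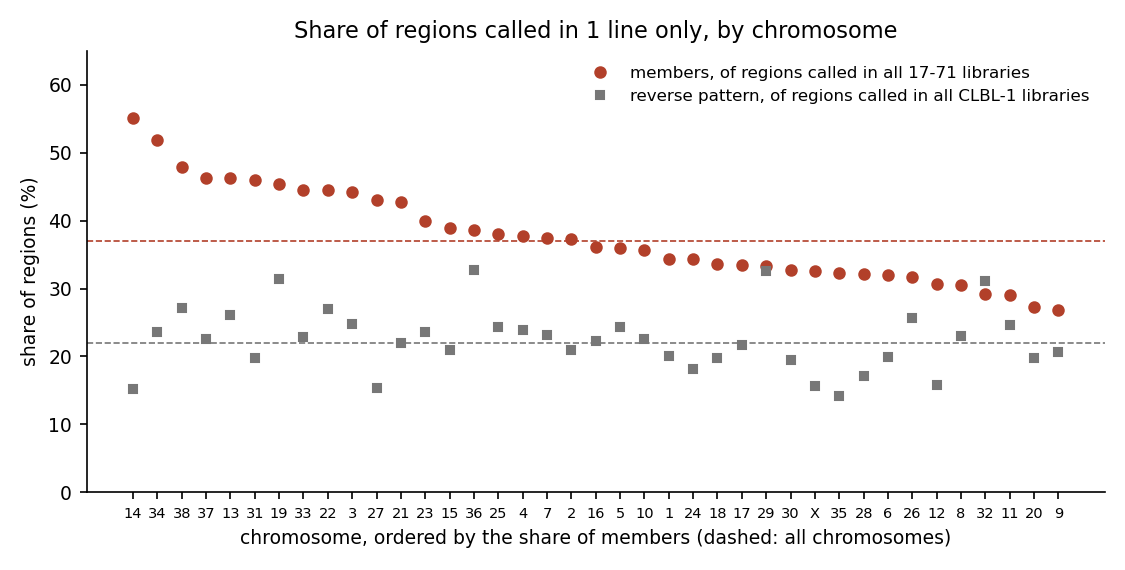
Share of the regions called in every library of 17-71 that have no CLBL-1 peak (circles), and share of the regions called in every CLBL-1 library that have no 17-71 peak (squares), on each chromosome (horizontal axis, ordered by the first share). Dashed lines are the shares over all chromosomes, 36.9% and 21.9%, and chromosome 14 is at 55.1% and 15.2%.

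In windows of 1 Mb, 1864 windows held a 17-71-specific region, with a median of 3, and 57 windows held 10 or more (694 regions together). The window with most, chromosome 27 from 38 to 39 Mb (38000001 to 39000000), held 27, beside 27 regions called in all 10 libraries and 4 of the reverse pattern. It contains the strong region at chr27:38784962-38787005, and its 17-71-specific regions ranked high, with a median percentile of 88.7, 88.2 and 87.2 in the controls and 80.4 and 88.9 in the C220 libraries. This was a window dense in accessible sites of both lines.

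The next windows were on chromosome 14, with 20 regions from 39000001 to 40000000, 17 from 42000001 to 43000000 and 17 from 43000001 to 44000000. In contrast to the window on chromosome 27, each of them held only 5 regions called in all 10 libraries. They made up 74.1%, 73.9% and 65.4% of the regions called in every 17-71 library there, and the last of them contains the strongest region of all, chr14:43435384-43437506. A window on chromosome 27 from 16000001 to 17000000 also held 17, beside 11 regions called in all 10 libraries.

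Most stretches of the genome between CLBL-1 peaks that held a 17-71-specific region held just 1. Of the 4330 stretches that held any, 3167 did so, which places 3167 of the 6499 regions alone in their stretch, and 121 stretches held 5 or more (763 regions). Of the 6499 regions, 6448 lay between 2 CLBL-1 peaks and 51 lay outside the first or last CLBL-1 peak of a chromosome. The richest stretch, chr5:78149751-79755964, ran for 1.61 Mb without a peak in any CLBL-1 library and held 17, including another of the 10 strongest, chr5:78331431-78333026. Their median percentile was 75.7, 60.8 and 61.1 in the controls and 33.9 and 64.3 in the C220 libraries, so the stretch was not strong as a whole.

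A stretch of 1.64 Mb on chromosome 37 (12859245 to 14497394) held 12, and 6 stretches tied at 10. The shortest of these, chr13:62299071-62446159, placed its 10 within 147089 bp. The others were on chromosomes 34, 20, 3, 14 and 1. The stretch on chromosome 3 (88771437 to 90015579) contains the wide region at chr3:88897485-88901233, and that on chromosome 14 (41800574 to 42301612) reaches into the window from 42000001.

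The distance to the nearest CLBL-1 peak had a median of 24124 bp. It was 10 kb or less at 1903 regions (29.3%), 1 kb or less at 52 and above 100 kb at 1282 (19.7%). Regions of the reverse pattern lay closer to the nearest 17-71 peak, at a median of 11118 bp, but the 3 control lists of 17-71 are longer than any of CLBL-1. To the nearest region called in all 10 libraries, the median distance was 81778 bp for the 17-71-specific regions and 54095 bp for those of the reverse pattern.

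Within 10 kb of another, 940 of the 17-71-specific regions (14.5%) had a neighbour of their own kind, against 14.1% of the 4019 regions of the reverse pattern and 20.1% of the 9179 called in all 10 libraries, sets that differ in size and so in density. The largest such group, chr27:13140157-13190490, chained 8 regions over 50334 bp. Some of its regions lay 161 to 641 bp from a CLBL-1 peak, and the others 4312 to 23427 bp. By the pairing of regions with genes in the study's table, its first region overlaps the end of the lincRNA ENSCAFG00000034714, a middle region lies inside that lincRNA, and its last lies upstream of the protein-coding gene ENSCAFG00000028502, which the table gives no symbol.

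The middle region, chr27:13154981-13158107, was the strongest of the group. It had a fold enrichment of 3.97, 3.19 and 3.35 in the controls and 4.69 and 3.39 in the C220 libraries. The last, chr27:13189570-13190490, had 4.00, 3.63 and 3.51 and 4.51 and 3.89. Between them, 3 regions had a fold enrichment of 1.42 to 1.88 in all libraries, so the group joined strong and barely called sites. In this group the percentiles ran against those of the whole set, with medians of 38.2, 40.1 and 43.9 in the controls and 77.7 and 71.8 in the C220 libraries. The group was singled out for its size and its pattern with C220 after its values were seen, and was not tested.

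Other groups held strong regions too. The region at chr34:250859-252844 ends a group of 5 that begins at 221037, and that at chr13:33879126-33880224 ends a group of 4 that begins at 33867319.

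Names of genes were available for few regions. The study's own table of 17-71 regions pairs some with an Ensembl gene by position, and of the 1999 rows of it held here, 206 equal a 17-71-specific region to the base and 50 of these carry a gene identifier. The rows held are those that came first in the study's own comparison of C220 with control, made on these same libraries. The named regions are therefore no sample of the whole, and no effect of C220 is read from them as a group. Of the 50, 31 pair with a protein-coding gene, 28 of them with a symbol, and 13 with a lincRNA. All 28 symbols are in RefSeq's annotation of the dog assembly UU_Cfam_GSD_1.0, which was used for names and neighbours only.

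At 5 genes the region overlaps the start. CD163 encodes a scavenger receptor of macrophages that takes up haemoglobin bound to haptoglobin. The region at its start, chr27:37669013-37671562, had a −log10 p of 46.6, 42.4 and 53.6 in the controls and 9.35 and 12.4 in the C220 libraries, and a fold enrichment of 3.76, 3.41, 3.55, 2.79 and 2.62. Its nearest CLBL-1 peak was 76136 bp away. A further 17-71-specific region lies near it, at chr27:37712677-37714315, upstream of the pseudogene ENSCAFG00000013990, with a fold enrichment of 5.79, 5.16 and 5.58 in the controls and 3.69 and 4.63 in the C220 libraries. In RefSeq, the protein-coding genes next to CD163 include PEX5.

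FCER1A encodes the alpha chain of the high-affinity receptor for IgE, best known from mast cells and basophils, and is a neighbour of ACKR1 in RefSeq. The region at its start, chr38:22688496-22692107, spanned 3612 bp, with a fold enrichment of 3.56, 3.46 and 3.36 in the controls and 3.35 and 3.75 in the C220 libraries. CD101 encodes a membrane protein of the immunoglobulin superfamily found on leukocytes. The region at its start, chr17:54391690-54394301, had a fold enrichment of 3.79, 3.21, 3.40, 3.27 and 2.92 in the same order of libraries. The regions at the starts of SPECC1, chr5:40161265-40164180, and of ENSCAFG00000030715, chr34:27103469-27105895, were of similar size and strength, with a weakest −log10 p of 6.63 and 6.37. All 5 regions at a start were at least 42158 bp from the nearest CLBL-1 peak.

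At 15 genes the region lies inside the gene. KIT, the receptor tyrosine kinase for stem cell factor on haematopoietic progenitors and mast cells, lies between PDGFRA and KDR in RefSeq. Its region, chr13:47109537-47113215, was 3679 bp wide and had a −log10 p of 23.1, 16.5 and 14.3 in the controls and 7.0 and 7.65 in the C220 libraries, with the nearest CLBL-1 peak 231445 bp away. With CCND1, KIT was one of 2 genes among the 28 that belong to the lists of B-cell, lymphoma and lineage genes drawn up for this work. No count over those lists is possible, since most regions are not paired with a gene here.

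TLR7, a receptor for single-stranded RNA in endosomes that lies beside TLR8, had a fold enrichment of 3.19, 4.60 and 4.78 in the controls and 2.97 and 3.49 in the C220 libraries at chrX:9338221-9339213. Its −log10 p of 5.03 in C220 replicate 4 is at the limit of a call, and control 1 lay between the 2 C220 libraries in fold enrichment, so the groups overlapped. CD180, a Toll-like receptor family member of the B-cell surface, had 2.65, 2.50, 2.34, 2.76 and 2.71 in the same order at chr2:52655721-52656688, with a CLBL-1 peak 1999 bp away. OTULIN, which removes linear ubiquitin chains, had a region at chr34:153818-154844 with a percentile of 96.7, 95.2 and 90.5 in the controls and 56.6 and 90.4 in the C220 libraries.

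The rest of the genes with a region inside were EIF3K, a subunit of a translation initiation factor, INPP5B, an inositol phosphatase, TDG, a DNA glycosylase, RAC1, a small GTPase, the transcription factor genes BHLHE40, HLX, TCF23 and BNC2, and RBP3, FTCD and THNSL1. By median percentile over the 5 libraries, THNSL1 (96.4), EIF3K (93.3) and TCF23 (92.0) were the highest of these, and FTCD (49.6) and HLX (51.0) the lowest. The region inside BHLHE40, a transcriptional repressor, had a CLBL-1 peak only 595 bp away.

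A region upstream of the gene was paired with CA14, CHI3L1, CST8, FADS2, PTPRH and SPRY4, and one downstream with CCND1, CETN1 and FBXW12. CCND1, the cyclin D1 gene that drives entry into S phase, had a fold enrichment of 4.06, 3.57 and 3.85 in the controls and 3.05 and 3.66 in the C220 libraries at chr18:48497350-48498987, 8699 bp from a CLBL-1 peak. FADS2, a fatty acid desaturase, had a median percentile of 91.9. The strongest region paired with any gene includes an snRNA of the family RF00026, at chr4:73430126-73431946, with a −log10 p of 122.5, 134.2 and 110.8 in the controls and 32.2 and 56.8 in the C220 libraries. Sequences of small nuclear RNAs occur in many near-identical copies, so reads there may be shared between copies.

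The rule asked for a peak with and without C220, so sites whose call was lost with C220 are not among the 6499. Among regions without a CLBL-1 peak, 1940 had a peak in all 3 controls and in no C220 library, 3092 in all 3 controls and 1 C220 library, and 83 in both C220 libraries and no control. Since the control lists are longer, no treatment effect is read from these counts.

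Within the 17601 regions called in all libraries of 17-71, C220 was compared with control by limma on log2 fold enrichment, each library centred on its median. Each value is that of the library's own peak, so the bases it covers differ between libraries. Peaks of the 17-71-specific regions were narrower at the median in the C220 libraries, as given below. The part of peak width in the differences was not tested. The median difference over the 17-71-specific regions, C220 minus control, was 0.02 on the log2 scale, with quartiles of -0.10 and 0.13, and it was 0.03 over all regions tested and 0.05 over those called in all 10 libraries. At a false discovery rate of 10%, 0 of the 6499 were called, as were 0 of the 17601 (0%). The smallest adjusted p was 0.11 (limma with Benjamini-Hochberg adjustment), and the median standard error of a difference was 0.13. All regions tested kept a call in both C220 libraries, so sites that lost one are not covered by the 0. In its own comparison, the study did report regions of changed accessibility in 17-71 at a false discovery rate of 10% with a fold change cutoff.

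At an unadjusted p under 0.05 in limma, 321 of the 17-71-specific regions (4.94%) were lower with C220, beside 5.02% of all regions tested, and 483 (7.43%) were higher, beside 9.8%. Both C220 libraries lay below all 3 controls at 829 regions (12.8%), where the share among all regions tested was 11.9%, and above them at 1085 (16.7%), where it was 20.2%. The shares of lower regions are near those of all regions tested and the shares of higher regions are below them, a gap that was not tested. Both directions together, 804 of the 17-71-specific regions (12.4%) were under 0.05, beside 14.8% of all regions tested. Without centring the count was 332 (5.11%), beside 5.93% of all regions, and without C220 replicate 4 it was 436 (6.71%), beside 6.83%. Without centring the median difference turned to -0.07, beside -0.05 over all regions tested. The count of 0 at the adjusted threshold depended on the setting. It was 1 without centring (0.015%, beside 0.023% of all regions) and 106 with ranks in place of fold enrichment (1.63%, beside 1.85% of all regions). Without C220 replicate 6, 176 of the 17-71-specific regions (2.71%) were called, 102 higher and 74 lower, beside 4.21% of all regions tested, in a fit where the spread of the single C220 library is assumed to be that of the controls.

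The largest differences, picked after their values were seen, show the scale. The region inside BNC2, chr11:36948299-36948935, had a fold enrichment of 7.87, 5.83 and 7.0 in the controls and 4.02 and 3.49 in the C220 libraries, a difference of -0.79 (SE 0.13, limma adjusted p = 0.11). The region upstream of CA14, chr17:59501518-59502873, had 6.32, 5.23 and 6.37 against 3.31 and 3.41, a difference of -0.74 (SE 0.14). At chr38:19860460-19861348 the values were 7.24, 6.86 and 6.97 against 3.61 and 4.48, a difference of -0.72 (SE 0.14). The regions at BNC2 and CA14 were among those the study's table put first for this comparison on the same libraries, so their differences are no independent evidence. In the other direction, chr38:1689730-1692607 had 3.83, 3.05 and 3.37 in the controls and 4.87 and 5.15 in the C220 libraries, a difference of 0.64 (SE 0.12). The region chr4:12946378-12947106 had 3.88, 3.29 and 2.88 against 5.40 and 4.50, a difference of 0.65 (SE 0.12, limma adjusted p = 0.11). The highest difference was at chr25:45572494-45575193, which had 3.29, 2.58 and 2.78 in the controls and 5.88 and 3.18 in the C220 libraries, a difference of 0.68 (SE 0.18, limma adjusted p = 0.17), with the larger shift in C220 replicate 4. On the centred log2 scale tested, control and C220 values did not overlap at any of these 6, and none passed the adjusted threshold.

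**Figure D5:**
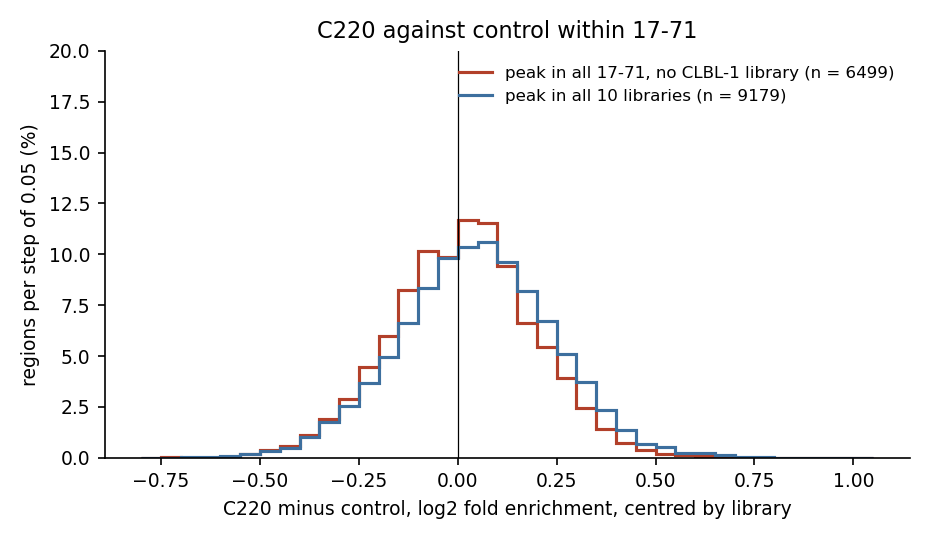
Difference between C220 and control libraries of 17-71 in centred log2 fold enrichment (horizontal axis), as the percent of regions in each step of 0.05 (vertical axis). Both outlines centre near 0, with medians of 0.02 for the 17-71-specific regions and 0.05 for the regions called in all 10 libraries.

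The median rank of these peaks within the library and their median width had lower values with C220, in a design where 3 against 2 libraries cannot give a p below 0.1. Controls had a median percentile of 66.9 ± 6.13 (SD, n = 3), and with C220 it was 54.5 ± 8.04 (SD, n = 2), which is -12.4 points apart (two-sided exact permutation test, p = 0.2). For regions called in all 10 libraries it was -8.15 points (two-sided exact permutation test, p = 0.1). When ranks were taken among the 17601 regions present in every 17-71 library, the same set in each library, the difference was 0.95 points in the opposite direction (two-sided exact permutation test, p = 0.5). Median peak width was 1022, 1031 and 1030 bp in the controls and 704 and 920 bp in the C220 libraries, a difference of -216 bp (two-sided exact permutation test, p = 0.1, the smallest possible), with every control above both C220 libraries. At regions called in all 10 libraries it was -234 bp (two-sided exact permutation test, p = 0.1). Relative to the median of all peaks of the library, the difference in width was -0.079 (two-sided exact permutation test, p = 0.3), and relative to that of the regions called in all 10 libraries it was -0.020 (two-sided exact permutation test, p = 0.5). Without C220 replicate 4, the differences were -6.76 points and -108 bp, and without C220 replicate 6 they were -18.1 points and -324 bp.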

How the data were processed

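The authors aligned ATAC-seq read pairs to CanFam3.1 with Bowtie2 2.2.4 and ran MACS2 in its broad mode on 1 library at a time, with no input named. The deposited lists give each peak's fold enrichment (a ratio to local background) and its −log10 p, both written by the authors' peak caller and unscaled across libraries. The deposited −log10 q and score columns were not used. The authors' methods state that outlier samples were removed. For MACS2's version and for duplicate removal, nothing is stated in the sources used here.

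Peaks were merged across libraries where they touched or overlapped. Where a library had several peaks in a region, the one of largest −log10 p gave the values and widths were summed. Percentiles are of −log10 p within a library's list. Coordinates are 1-based. Treatment was compared within 17-71 with limma 3.58.1 in R 4.3.3 (empirical Bayes with trend, Benjamini-Hochberg adjustment over 17601 regions) and by exact permutation of 1 value per library. Merging was checked against bedtools 2.31.1 and the fit was tested on simulated data. Python 3.11.15 was used with pandas 2.3.3.

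Named regions were set by rule: the 10 strongest, the 5 widest in common, and the stretches and 1 Mb windows with most members; those paired with a gene were added after their values were seen. The members and lists were chosen with earlier results of these data known. Position relative to genes, lineage markers and motifs were not analysed here, as no CanFam3.1 genome or annotation was used apart from the gene pairs of the study's region table, whose values were not used.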

Additional observations from a re-analysis of the deposited data

How the results depend on the processing

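The number of 17-71-specific regions depended on which peaks counted as a call and on which libraries had to carry one. It was 2134 with peaks of a −log10 p of at least 10, which 1616 of the 6499 (24.9%) overlapped, and 12715 with control libraries only. Without a single library it lay between 6534 and 9140, the highest being without C220 replicate 4. The other alternatives (20000 strongest peaks of each library, C220 libraries only, merging up to 500 bp, no CLBL-1 peak within 1000 bp) gave 4799 to 7644.

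The count of regions called with C220 by limma was 0 of 17601, and 4 without centring and 325 with ranks in place of fold enrichment (208 higher, 117 lower). Without a single library it lay between 0 and 741, the 741 without C220 replicate 6 and 3 without control 1. Among the 17-71-specific regions it was 0, and 1 without centring, 106 with ranks (60 higher, 46 lower) and between 0 and 176 without a single library. Quantile normalisation, no trend, a mean fold enrichment of at least 4 and the stricter thresholds called 0 in both. Ranks differ in kind from fold enrichment and can shift with list length. The median difference in rank in that fit was 2.76 points over all regions tested and 0.87 points over the 17-71-specific regions. These are medians of differences per region. In that fit, the ranks of each library were centred on their median over the 17601 regions. The -12.4 points between median ranks in the whole peak lists were not centred. The values are therefore not on the same scale, and their signs need not match. The median difference of the 17-71-specific regions in log2 fold enrichment was 0.02, and -0.07 without centring, -0.01 with quantile normalisation and -0.01 with a mean fold enrichment of at least 4. The cause of the calls was not tested.

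The difference in median rank reversed to 0.95 points when ranked among regions present in all 17-71 libraries, an alternative chosen after seeing the data, and was -18.1 to -6.76 points without a single library. The difference in median width was -324 to -108 bp without a single library, and -0.020 as a ratio to regions called in all 10 libraries, also chosen after seeing the data. No paired analysis was possible because the control and C220 libraries of 17-71 share no replicate number. With no read counts, the absence of a call is limited by an unknown depth, and 3 against 2 libraries cannot give a permutation p below 0.1. The shares by place relative to genes and the motif counts were not run, for want of a genome and annotation of the build.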
